A study of Homo sapiens with 15 samples.

Results

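The transcripts described here are the noncoding RNAs that the array's own annotation files under a RefSeq noncoding accession: long noncoding RNAs, host transcripts of small nucleolar RNAs (snoRNAs), a few small structural RNAs and, for the larger share, transcribed pseudogenes. Of the 41000 probes on the array, 251 carried such an accession. After 37 probes placed on chromosomes X or Y were left out, 214 probes remained, which stand for 173 names and are called the noncoding probes here. The rule that defines them uses the annotation only, and no measured value, although it was chosen with earlier results of these data known. By type, 156 of the 214 probes were for pseudogenes, 10 for nuclear long noncoding RNAs, 9 for antisense transcripts, 6 for snoRNA hosts, 3 for imprinted transcripts, 3 for small structural RNAs, 1 for PVT1, 1 for a miRNA host and 13 for other noncoding transcripts, while 5 are now classed as protein coding and 7 have no current name.

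All cells were A549, a human lung adenocarcinoma line. For each of 5 miRNAs that had been picked as radiation-responsive (miR-574-3p, miR-181d, miR-766, miR-565 and miR-629*), one culture received a synthetic copy of the miRNA (the mimic) and another received a locked nucleic acid oligonucleotide against it (the antagomir), each at 20 nM, and RNA was taken 24 h after transfection. Each of the 15 two-colour arrays held both RNAs of 1 miRNA, mimic RNA in Cy5 and antagomir RNA in Cy3, with 3 arrays per miRNA, and the ratio is always Cy5 over Cy3. The colours were never exchanged, so within a miRNA the dye and the treatment cannot be told apart. In a difference between 2 miRNAs, any dye effect that they share drops out. No untreated or control-oligonucleotide RNA is on these arrays, and the labels do not say whether the 3 arrays came from separate transfections, so p-values measure the spread between these arrays, which may be technical. The epithelial keratins KRT8 and KRT18 and the A549 enzymes AKR1B10, AKR1C1 and ALDH1A1 were well above background on all 15 arrays, and the leukocyte marker PTPRC, the fibroblast collagens COL1A2 and COL3A1 and the endothelial PECAM1 and CDH5 were above it on none. CD3E, ITGAM and COL1A1 were above it on all 15 arrays at signals under 50, and VWF on 15 in Cy5 and 9 in Cy3, so the marker lists of other cell types were not absent as a whole. The CDKN2A probe, for a gene in a locus reported as deleted in these cells, read 479 in Cy5 and 415 in Cy3 and was above background on all 15 arrays, while CDKN2B was above it on 2 arrays in Cy5 and on 0 in Cy3.

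Noncoding transcripts act as RNA. snoRNA host genes such as GAS5 and the SNHG family carry snoRNAs in their introns, and the spliced host RNA of several of them is engaged by ribosomes and quickly degraded, so that it builds up when growth or translation is slowed. MALAT1 and NEAT1 stay in the nucleus, in nuclear speckles and paraspeckles. A processed pseudogene is a copy of a spliced mRNA put back into the genome, and a probe for it can be so like its protein-coding parent that both RNAs may bind it.

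The probe sequences below are shown because several of the main differences were read from them and because some resemble their parent genes. They are the array's own 60-base oligonucleotides, given 5′ to 3′, with positions from the files on NCBI36 (hg18).
RPL23AP7, first probe: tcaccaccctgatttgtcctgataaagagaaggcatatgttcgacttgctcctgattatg
RPL23AP7, second probe: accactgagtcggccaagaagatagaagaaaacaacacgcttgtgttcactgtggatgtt
FTH1P12: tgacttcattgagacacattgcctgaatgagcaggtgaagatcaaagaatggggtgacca
NME2P1: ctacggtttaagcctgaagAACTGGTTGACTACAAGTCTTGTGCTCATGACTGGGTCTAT
LOC440353: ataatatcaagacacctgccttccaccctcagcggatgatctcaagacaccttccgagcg
MALAT1, brightest probe: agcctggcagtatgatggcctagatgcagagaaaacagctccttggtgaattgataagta
MALAT1, probe that was called: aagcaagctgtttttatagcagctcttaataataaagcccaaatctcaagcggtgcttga

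Capitals in NME2P1 mark the 41 bases that are also in the array's probe for its parent NME2. The NME2P1 probe lies at chr12:119204837-119204896 on the plus strand, and both MALAT1 probes lie on the plus strand, at chr11:65026718-65026777 and chr11:65029449-65029508. For the others, all on the minus strand, the files give only part of the probe a position: RPL23AP7 at chr2:114085498-114085525 (28 of the 60 bases) and at chr2:114085498-114085542 (45 bases), FTH1P12 at chr9:15516973-15516992 (20 bases) and LOC440353 at chr16:29402631-29402650 (20 bases). The mature sequences of 3 of the miRNAs, from RefSeq (GRCh38.p14), are shown with the seed, bases 2 to 8, in capitals, and miR-565 and miR-766 are only named here.
miR-181d: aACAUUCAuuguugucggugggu
miR-574-3p: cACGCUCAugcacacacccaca
miR-629*: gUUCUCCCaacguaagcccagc

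Most of the noncoding probes gave a signal in A549 cells. On all 15 arrays and in both channels, 136 of them exceeded background clearly, 39 did so in no channel on any array, and 39 lay between. Per array, 141 to 165 probes (65.9% to 77.1%) were above background in Cy5 and 147 to 159 (68.7% to 74.3%) in Cy3, and the shares over all probes of the array were close to this, at 68.1% to 75.5% and 68.8% to 73.0%. The lowest of these counts, 141, came from miR-565 replicate 1 in Cy5. A total of 169 noncoding probes passed the filter on dim signals (a clear signal over background in Cy5 or Cy3 on 3 or more arrays) and were tested, and 45 were not, among them the miRNA host MIR155HG.

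One array stands apart. The log2 ratios of the noncoding probes tested had an SD of 1.05 on miR-565 replicate 1, against 0.27 to 0.57 on the other 14 arrays, and 40 of the 169 probes lay below -1 there, against 0 to 12 on each other array. Over all probes tested, the SD was 0.94 on that array and 0.29 to 0.53 elsewhere. It shares a slide with the miR-181d arrays, whereas miR-565 replicates 2 and 3 lie on the next slide. Because the fit shares 1 spread per probe over all arrays, this array widens the error of every miRNA, so results are given with and without it.

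**Figure D1:**
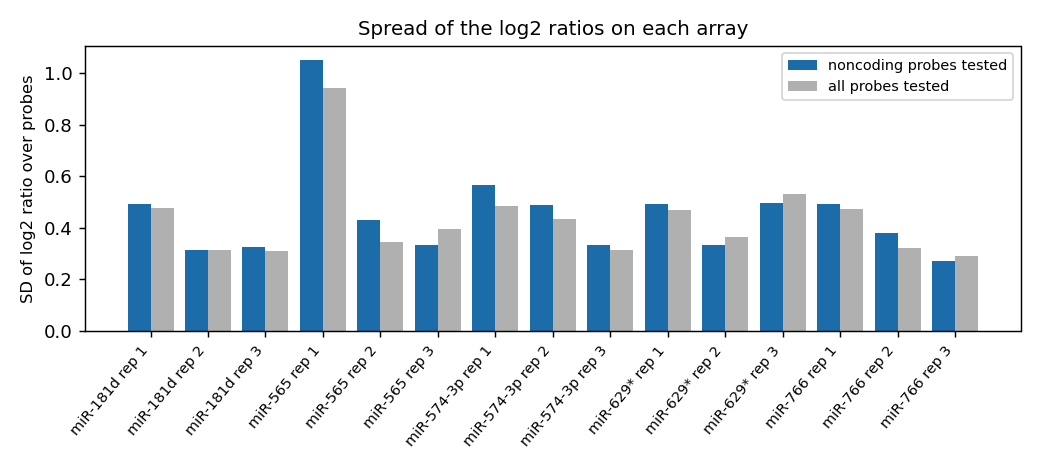
SD of the log2 ratio (Cy5 mimic over Cy3 antagomir) over probes, on each of the 15 arrays; blue bars are the 169 noncoding probes tested, grey bars all 31345 probes tested. The bars of miR-565 replicate 1 reach 1.05 and 0.94, above those of every other array.

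GAS5, a snoRNA host transcript named for its accumulation in growth-arrested cells, gave ratios that fell into separate levels by miRNA. Its log2 ratio was -0.38, -0.38 and -0.60 on the miR-574-3p arrays and -0.44, -0.57 and -0.69 on the miR-766 arrays. It was 0.10, 0.07 and 0.14 for miR-181d and 0.26, 0.06 and 0.04 for miR-629*. For miR-565, it was 0.24 and 0.23 on replicates 2 and 3 and -1.42 on replicate 1. Apart from that array, the miR-574-3p and miR-766 values did not overlap with those of the other miRNAs. This grouping was formed from these same values, and the share of all probes that separate in this way was not counted. GAS5 was not called in the separate test of miR-574-3p or of miR-766 over all 15 arrays, nor in the mean (limma adjusted p = 0.0908). With all 15 arrays, the F test of differences between the 5 miRNAs did not call GAS5 (limma, adjusted p = 0.683), and without miR-565 replicate 1 it did (adjusted p = 9.83e-05), with fitted log2 ratios of -0.45 for miR-574-3p and -0.57 for miR-766 (SE 0.053 each) against 0.11, 0.24 and 0.12 for miR-181d, miR-565 and miR-629*.

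In the separate channels, GAS5 differed between miRNAs in Cy3, the antagomir RNA. Its Cy3 signal was 5063, 5889 and 6361 on the miR-574-3p arrays and 4377, 6001 and 6573 on the miR-766 arrays, against 3693, 3709 and 4003 for miR-181d, 4614, 3551 and 3550 for miR-565 and 3470, 3367 and 2633 for miR-629*. These overlap in 1 value, since miR-565 replicate 1 lies above the lowest miR-766 array. After quantile normalisation within the dye, the Cy3 signal stood above the mean of the other 4 groups by 0.50 on the log2 scale in miR-574-3p antagomir cells (limma, adjusted p = 1.09e-06) and by 0.52 in miR-766 antagomir cells (adjusted p = 1.44e-05), and it was below that mean in the other 3 groups, by -0.32 to -0.37. Over all probes, the Cy5 fit called at most 0.294% in any group (miR-766). For GAS5 in Cy5, no group was called (differences of -0.44 to 0.21, SE 0.24, adjusted p of 0.258 or more), and miR-565 replicate 1 widened that error. Without that array, chosen after seeing the data, the Cy5 differences were -0.08 to 0.11 with SE of 0.0394 to 0.0460 and none was called, while the Cy3 differences stayed at 0.49 for miR-574-3p and 0.51 for miR-766 (adjusted p = 4.46e-06 and 6.33e-05). Within the slide that miR-574-3p shares with miR-565 replicates 2 and 3, the miR-574-3p ratio was -0.62 below that of miR-565 on the log2 scale, and within the slide it shares with miR-629*, the miR-629* ratio was 0.72 above it. The 3 miR-766 arrays have a slide to themselves, so slide and miRNA cannot be told apart for them.

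**Figure D2:**
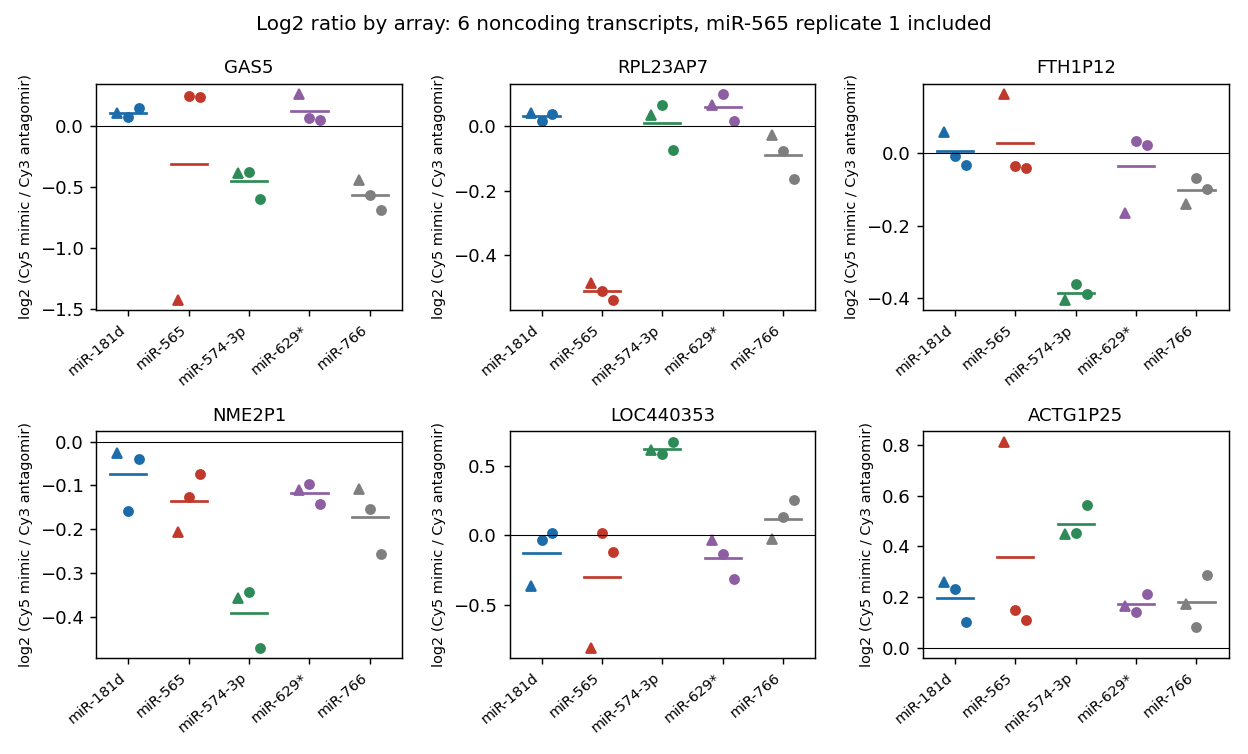
Log2 ratio (Cy5 mimic over Cy3 antagomir) of 6 noncoding transcripts on each of the 15 arrays, by miRNA; triangles are replicate 1, circles replicates 2 and 3, short lines the mean of 3 arrays, and each panel has its own scale. RPL23AP7 is low on the miR-565 arrays (-0.49 to -0.54), and FTH1P12 and NME2P1 are low and LOC440353 high on the miR-574-3p arrays.

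The other snoRNA hosts varied. SNHG1, host of several U-series snoRNAs, had log2 ratios of -0.09 to 0.16 on 14 arrays and -1.98 on miR-565 replicate 1. SNHG5, the brightest of them ranged from -0.32 to 0.19 over the 15 arrays. SNHG11 was lower in miR-574-3p mimic than antagomir cells, at -0.48, -0.51 and -0.40 (log2 ratio -0.46, SE 0.0728, limma adjusted p = 0.00292), and its values on the arrays of the other miRNAs, -0.27 to 0.18, did not overlap with these, although the F test between miRNAs did not call it (adjusted p = 0.466). As for GAS5, its Cy3 signal in miR-574-3p antagomir cells stood above that of the other groups, by 0.26 (adjusted p = 0.00344). The probe named SNHG8 was called higher in miR-565 (0.26, adjusted p = 0.0387), and SNHG10 and SNHG8 had mean log2 ratios of 0.08 each, with limma adjusted p-values of 0.0628 and 0.0780. The SNHG8 probe is placed on chromosome 3 in the files, where RefSeq now has that gene on chromosome 4, so its identity is unsettled. Of the 6 hosts tested, 1 was called lower in the mean over the 5 miRNAs (SNHG11, -0.20) and 0 higher, beside 18.5% of all probes called lower and 22.3% higher. Without miR-565 replicate 1, SNHG11 (-0.22) and GAS5 (-0.11, limma adjusted p = 0.00194) were called lower, beside 26.4% of all probes. SNHG10 (0.07, adjusted p = 0.0407) and the SNHG8 probe (0.05, adjusted p = 0.0493) were then called higher, beside 30.8%.

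RPL23AP7, a transcribed pseudogene of the ribosomal protein gene RPL23A, was lower in miR-565 mimic than antagomir cells on 1 of its 2 probes. Its first probe read -0.49, -0.51 and -0.54 (log2 ratio) on the miR-565 arrays and -0.16 to 0.10 on the other 12, so the groups did not overlap. The fitted ratio was -0.51 (SE 0.0379, limma adjusted p = 1.67e-05), and the F test between miRNAs called it with all arrays (adjusted p = 0.000478) and without miR-565 replicate 1 (adjusted p = 0.000171). Its Cy3 signal on the miR-565 arrays was 56467, 38630 and 37892, above the 21367 to 32587 of the other 12 arrays, and stood 0.48 above the other groups after normalisation (adjusted p = 7.63e-07), while Cy5 differed by 0.02 (adjusted p = 0.81; -0.04 without replicate 1, SE 0.0344, not called). The log2 ratio of miR-565 lay -0.52 from that of miR-181d within the slide that holds replicate 1, and that of miR-574-3p lay 0.57 from miR-565 within the next slide. The parent RPL23A had a log2 ratio of -0.63 in miR-565 (adjusted p = 5.93e-06) and of -0.10 to 0.03 in the others. Over the 15 arrays, the ratios of RPL23A and of the first RPL23AP7 probe correlated at r = 0.99, and whether that probe read RPL23A RNA was not tested. The second RPL23AP7 probe (r = 0.12 with RPL23A) did not share the fall in miR-565: its ratio was 0.12 there (adjusted p = 0.117) and it was called higher in miR-629* (0.24, adjusted p = 0.0149).

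FTH1P12, a pseudogene of the ferritin heavy chain that stores iron, read -0.40, -0.36 and -0.39 on the miR-574-3p arrays and -0.16 to 0.16 on the rest. The F test called it at an adjusted p of 0.0379 with all arrays and of 0.00350 without miR-565 replicate 1. With 1 array left out, the call held in 3 of 15 fits, and without any 1 of the miR-574-3p arrays the adjusted p was 0.221 to 0.289. It was also lost with normexp and loess (adjusted p = 0.0978). Its Cy3 signal was 0.32 above that of the other antagomir groups (adjusted p = 0.000113) and its Cy5 signal differed by -0.06 (adjusted p = 0.987). FTH1 itself had a log2 ratio of -0.34 in miR-574-3p (adjusted p = 0.0102). The ratios of FTH1 and FTH1P12 correlated at r = 0.96 over the 15 arrays, and whether the FTH1P12 probe read FTH1 RNA was not tested. The first RPL23AP7 probe and the FTH1P12 probe were the 2 of 169 that differed between miRNAs with all arrays, beside 0.517% of all probes. Without miR-565 replicate 1 there were 9 of 169, or 5.33%, beside 3.56%.

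The 9 probes were those of GAS5, RPL23AP7 and FTH1P12, 3 of the 4 probes of LOC440353, and those of NME2P1, ACTG1P25 and GBA1LP, the last named after its value was seen. For all 9, a Cy3 difference was called in miR-574-3p or, for RPL23AP7, miR-565, and no Cy5 difference was called with or without miR-565 replicate 1. Over all 169 noncoding probes, the Cy3 fit called 23 in miR-574-3p, beside 8.57% of all probes. The Cy5 fit called 0% of all probes in miR-574-3p and in miR-565. Without miR-565 replicate 1, it called 0.0319% and 0.00319% of all probes there. The lack of a Cy5 call is therefore not particular to these 9 probes. LOC440353, a pseudogene of the nuclear pore interacting protein (NPIP) family, was higher in miR-574-3p mimic than antagomir cells on all 3 of these probes; on the one printed above the log2 ratios were 0.61, 0.59 and 0.67, against -0.81 to 0.26 elsewhere. Its Cy3 signal was 10111, 11599 and 11140 in miR-574-3p antagomir cells, below all other Cy3 values of 12332 to 22172 (difference -0.56, adjusted p = 3.3e-07), and Cy5 differed by 0.17 (adjusted p = 0.987). NPIP copies are alike, and 1 of these LOC440353 probes shares a stretch of 25 bases or more with probes for NPIP, so which copy was read is uncertain. The fourth LOC440353 probe had a ratio of 0.04 in miR-574-3p (adjusted p = 0.968).

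NME2P1, a copy of the nucleoside diphosphate kinase gene NME2, had log2 ratios of -0.36, -0.34 and -0.47 in miR-574-3p and -0.26 to -0.03 elsewhere. ACTG1P25, a copy of the cytoplasmic actin gene ACTG1, had 0.45, 0.45 and 0.56 in miR-574-3p, 0.81 on miR-565 replicate 1 and 0.08 to 0.29 on the other arrays. In Cy3, NME2P1 differed by 0.25 (adjusted p = 0.00150) and ACTG1P25 by -0.52 (adjusted p = 5.09e-05) in miR-574-3p antagomir cells, with Cy5 differences of -0.02 and -0.26 that were not called (adjusted p = 0.987). The parents moved the same way in miR-574-3p, NME2 by -0.13 (adjusted p = 0.0448) and ACTG1 by 0.45 (adjusted p = 0.000162). MCM3AP-AS1, antisense to the replication-licensing acetylase gene MCM3AP, was also higher in miR-574-3p mimic cells, at 0.45, 0.54 and 0.62 (adjusted p = 0.00915), against -0.32 to 0.35 elsewhere, with a Cy3 difference of -0.37 (adjusted p = 0.000668). Its second, brighter probe had a ratio of 0.27 in miR-574-3p that was not called (adjusted p = 0.262).

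**Figure D3:**
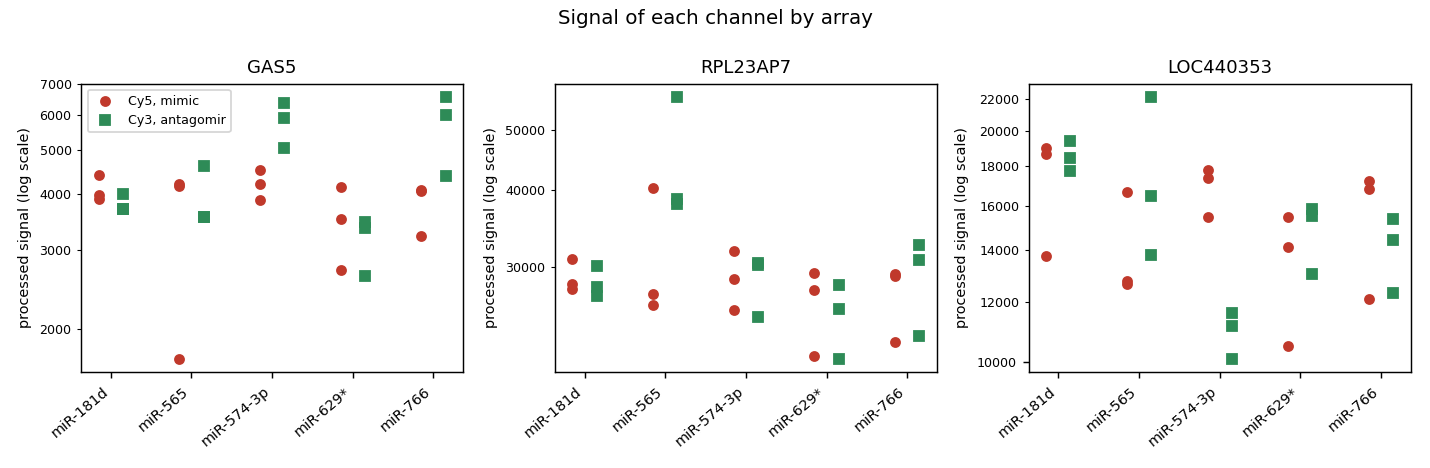
Processed signal on a log axis for GAS5, RPL23AP7 (first probe) and LOC440353 on each of the 15 arrays, by miRNA; circles are Cy5 (mimic cells) and squares Cy3 (antagomir cells). The squares of miR-574-3p and miR-766 lie high for GAS5, those of miR-565 lie high for RPL23AP7 and those of miR-574-3p low for LOC440353, and the low GAS5 circle at 1721 is miR-565 replicate 1.

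In the mean over all 5 miRNAs, the noncoding probes leaned to the lower side. The mean of the 5 log2 ratios was called lower for 47 of 169 probes (27.8%), beside 18.5% of all probes, and higher for 22 (13.0%), beside 22.3%. The median of this mean was -0.07 over the noncoding probes and 0.01 over all probes. Without miR-565 replicate 1 the counts were 62 lower (36.7%) and 32 higher (18.9%), beside 26.4% and 30.8% of all probes. With normexp background correction and loess in place of the scanner's own normalisation, 53 were lower and 19 higher, beside 23.2% and 17.6% of all probes. The side to which all probes leaned thus turned, while that of the noncoding probes did not. The median was then -0.04 over the noncoding probes and -0.01 over all probes, a smaller gap than in the main fit. With the slide as a random block, whose correlation was estimated at 0.73, limma called 0 noncoding probes (20 at an unadjusted p under 0.05), beside 0.214% of all probes. Without miR-565 replicate 1 that correlation was -0.20 and 117 were called, 78 lower and 39 higher, beside 34.3% and 39.1% of all probes. The noncoding probes called lower were brighter, with a median signal of 988, than those called higher (233) or not called (192). Over all probes the order was the same, at 396, 203 and 174. The part of signal or of the dye in this lean was not tested.

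**Figure D4:**
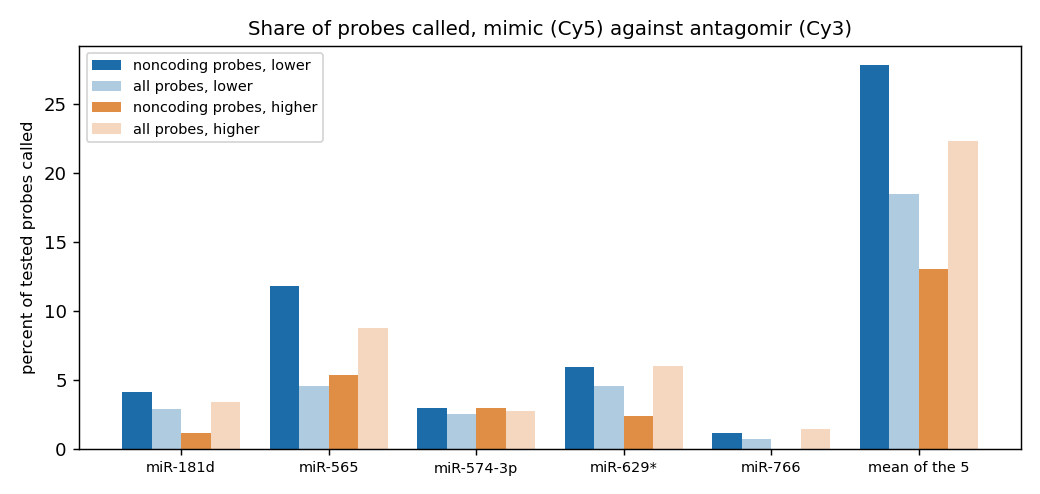
Percent of tested probes called at an adjusted p under 0.05, lower (blue) or higher (orange) in mimic than in antagomir cells, for each miRNA and for the mean of the 5; dark bars are the 169 noncoding probes and pale bars all 31345 probes. In the mean, 27.8% of noncoding probes were lower, beside 18.5% of all, and 13.0% higher, beside 22.3%.

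A total of 40 noncoding probes had a fitted ratio below 0 in all 5 miRNAs (23.7%, beside 14.9% of all probes) and 21 above 0 in all 5 (12.4%, beside 20.5%). In each miRNA's own test, 121 of the 169 (71.6%) were called for no miRNA, beside 76.7% of all probes, and 37 (21.9%) for 1, beside 15.2%. A further 8 (4.73%) were called for 2, beside 4.53%, and 2 (1.18%) for 3, beside 1.69%. For all 5, 1 (0.592%) was called, beside 0.896%. It was FDPSP2, a pseudogene of farnesyl diphosphate synthase, an enzyme of the sterol pathway. Its log2 ratio lay between -0.36 and -0.16 on 14 arrays and at 0.01 on miR-565 replicate 1, with a mean of -0.25 (SE 0.0241, limma adjusted p = 8.86e-06), whereas its parent FDPS had a mean of -0.06. UBE2MP1, a copy of the NEDD8-conjugating enzyme gene UBE2M, was below 0 on 14 arrays, with a mean of -0.33 beside -0.38 for UBE2M. HLA-H, a class I histocompatibility pseudogene, had a mean of -0.32 and was called lower in miR-181d (-0.44) and miR-629* (-0.42).

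Pseudogenes made up most of the calls, as they made up most of the probes. Of 121 pseudogene probes tested, 40 were called lower and 16 higher in the mean, beside 18.5% and 22.3% of all probes, and the median of their mean ratio was -0.09. The lowest were SNX29P2 (-0.93, and -0.70 without miR-565 replicate 1), a copy of a sorting nexin gene, and GOLGA6L5P (-0.66 and -0.58 on 2 probes), of a golgin family. Other probes of both were not called, at 0.13 for SNX29P2 and 0.03 for GOLGA6L5P. The highest were SUGT1P3 (0.59), GEMIN8P4 (0.44) and TDH (0.37), the remnant of the threonine dehydrogenase gene. Second probes of GEMIN8P4 (0.07) and TDH (-0.05) were not called. SUGT1P3 was not well above background in Cy3 on any array and in Cy5 on 9, so its Cy5 signal was at least 1.02-fold higher and no more can be said. For 60 pseudogene probes whose parent is on the array, the mean ratio had the sign of the parent's in 38. NACA4P and its parent NACA, a ribosome-associated chaperone subunit, lay on opposite sides (0.22 and -0.15, adjusted p = 5.56e-05 and 0.00897), as did NUDT9P1 (-0.53) and the nucleotide hydrolase gene NUDT9 (0.12).

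In miR-181d, 7 noncoding probes were lower and 2 higher, beside 2.86% and 3.41% of all probes. The lowest were LOC284441 (-0.54), whose replicate 1 was at -1.17 and whose other replicates were at -0.18 and -0.26, and LYPLA2P1, a copy of a lysophospholipase gene, which read -0.50, -0.52 and -0.53 (adjusted p = 0.0343). LYPLA2 itself had -0.79 (adjusted p = 0.0219). LOC407835 (-0.47) and UBE2MP1 (-0.42) were also lower, and the olfactory receptor pseudogene OR7E156P (0.32) and NACA4P (0.23) were higher.

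In miR-565, 20 were lower and 9 higher, beside 4.56% and 8.75% of all probes, and several of the largest values rest on replicate 1. ASAP1-IT1, transcribed within an intron of the ASAP1 gene, had -2.80, -0.41 and -1.42 (mean -1.54, adjusted p = 0.0246), and without replicate 1 its value was -0.92 and was no longer called (adjusted p = 0.108). GOLGA6L5P had -2.20, -0.34 and -0.60 on its brighter called probe. Its dimmer called probe (-1.05, limma adjusted p = 0.0209) was the single noncoding probe that met the methods' limits for suppression in any miRNA. These were a ratio under 0.5, p of 0.001 or less and intensity of 20 or more, taken here on limma's ratio and unadjusted p. Of all 31345 probes, 56 (0.179%) met them in miR-565. Without replicate 1, neither GOLGA6L5P probe stayed called, at -0.47 (adjusted p = 0.167) for the brighter and -0.53 (adjusted p = 0.0597) for the dimmer. SNORD22, a small nucleolar RNA encoded within SNHG1, had -2.42, -0.25 and -0.26, and stayed called without replicate 1 at -0.26 (adjusted p = 0.0390). On the higher side, OR7E156P (0.47) and DIO3OS (0.41), antisense to the thyroid hormone deiodinase gene DIO3, stayed called at 0.28 and 0.22, whereas GEMIN8P4 (0.61), PYY2 (0.59) and EPR1 (0.55) did not.

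In miR-574-3p, 5 were lower and 5 higher, beside 2.56% and 2.76% of all probes. All 10 have been named: SNHG11, NME2P1, FTH1P12, UBE2MP1 (-0.33) and FDPSP2 (-0.30) on the lower side, and 3 LOC440353 probes, MCM3AP-AS1 and ACTG1P25 on the higher. In miR-629*, 10 were lower and 4 higher, beside 4.54% and 5.99%. The lowest were MGC10997 (-0.61; -0.77, -0.27 and -0.79 by array), FER1L4 (-0.44), a dysferlin-family pseudogene, HLA-H and LRRC37A4P (-0.41). The higher ones were RAB9BP1 (0.31), NACA4P (0.29), MEIS3P1 (0.26) and the second RPL23AP7 probe. Another MEIS3P1 probe was at 0.09 there and was not called. In miR-766, 2 were lower, FDPSP2 (-0.29) and NBR2 (-0.27), a neighbour of BRCA1 transcribed from a shared promoter, and 0 higher (6 at an unadjusted p under 0.05, and 2 by limma after normexp and loess), beside 0.702% and 1.47% of all probes. NBR2 was called on 1 of its 3 probes there, and the 3 had means over the 5 miRNAs that ran from -0.19 to 0.38. The probe at 0.38 was well above background in Cy3 on no array, and its mean was not called.

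Among the nuclear long noncoding RNAs, MALAT1 was lower in mimic than in antagomir cells on 1 of its 4 probes. That probe had log2 ratios of 0.71, -0.44 and -0.41 in miR-181d, -2.17, -0.62 and -0.51 in miR-565, -0.28, -0.97 and -0.76 in miR-574-3p, -0.45, -1.08 and -1.39 in miR-629* and -1.60, -0.96 and -0.91 in miR-766, so 14 of 15 arrays were below 0. Its mean was -0.79 (SE 0.136, limma adjusted p = 0.000603), and -0.68 without miR-565 replicate 1 (adjusted p = 0.000102). The brightest MALAT1 probe had a mean of -0.48 (adjusted p = 0.0764), with -1.59 on miR-181d replicate 1 and -3.16 on miR-565 replicate 1 and -0.62 to 0.26 on the other arrays; without miR-565 replicate 1 it was called at -0.27 (adjusted p = 0.0312). The remaining MALAT1 probes had means of -0.35 and -0.27 and were not called (adjusted p = 0.131 and 0.222).

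NEAT1, the scaffold of paraspeckles, had a mean of -0.11 (adjusted p = 0.588), with -2.17 on miR-565 replicate 1 and -0.34 to 0.57 on the others. TUG1, a widely expressed transcript, read 0.36, 0.35 and 0.37 in miR-574-3p on its brighter probe, above its values on all other arrays (-1.09 to 0.28), without a call for the ratio (adjusted p = 0.276), while its Cy3 signal in miR-574-3p antagomir cells lay -0.21 from the other groups (adjusted p = 0.00609). The mean of that TUG1 probe was 0.06 (limma adjusted p = 0.553), and without miR-565 replicate 1 it was called at 0.14 (adjusted p = 0.000861). MIAT and SNX29P2 were low on the same arrays: both lay below -1.5 on miR-565 replicate 1, on replicates 1 and 2 of miR-574-3p and on replicate 1 of miR-629* and of miR-766, and both lay above -1 on the other 10 arrays. On miR-565 replicate 1 neither was well above background in Cy5, so these ratios are only bounds there. On the other 4 of these arrays MIAT had -2.11, -1.54, -2.26 and -2.07, and SNX29P2 had -1.95, -1.79, -2.40 and -2.20. Their probes were dim, with a mean Cy5 signal of 36.6 for MIAT and a lower one for SNX29P2, a second probe of each was at -0.03 (MIAT) and 0.13 (SNX29P2), and MIAT was not called in the mean (-0.78, adjusted p = 0.0641).

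**Figure D5:**
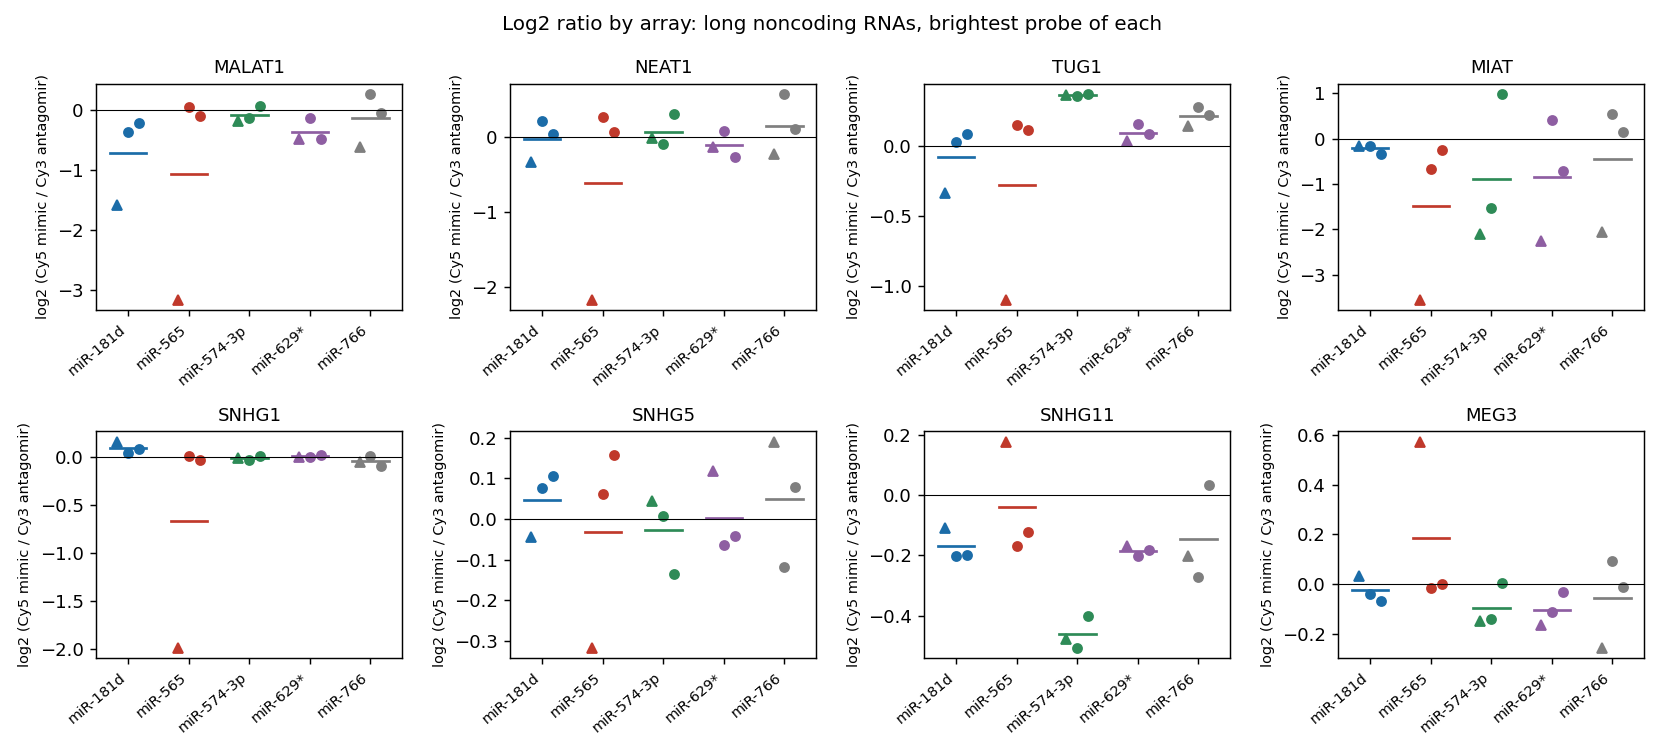
Log2 ratio (Cy5 mimic over Cy3 antagomir) on each of the 15 arrays for 8 long noncoding RNAs, brightest probe of each, by miRNA; triangles are replicate 1, circles replicates 2 and 3, short lines means of 3 arrays, and each panel has its own scale. The lowest point of MALAT1, NEAT1, TUG1, MIAT, SNHG1 and SNHG5 is miR-565 replicate 1, where MIAT was not well above background in Cy5.

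Of the imprinted transcripts, MEG3 had a mean log2 ratio of -0.02 (adjusted p = 0.769) on its brighter probe, and H19 was above background on 10 arrays in Cy5 and 4 in Cy3, at signals of 6.39 and 6.27. PVT1, the transcript next to MYC, had -0.05 (adjusted p = 0.363), and without miR-565 replicate 1 it was called at -0.09 (adjusted p = 0.00074). Of the 7 antisense probes tested, 3 were called higher in the mean, MCM3AP-AS1 and DIO3OS (0.18 each) and RFPL1S (0.41), the last above background in Cy3 on 1 array, beside 22.3% of all probes. The second MCM3AP-AS1 probe was at -0.02, and the median over the 7 was 0.01. Of the small structural RNAs, SCARNA17, a guide RNA of Cajal bodies, had a mean of -0.19 (adjusted p = 0.0306), with -1.10 on miR-181d replicate 1, and SNORD14E had 0.31 with all arrays (adjusted p = 0.238) and 0.53 without miR-565 replicate 1 (adjusted p = 2.73e-05).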

How the data were processed

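A total of 15 Agilent G4112F two-colour arrays were analysed. Per the labels, they were scanned and extracted with Agilent Feature Extraction 9.5.3. The deposited scanner files hold processed signal intensity per spot, already background-subtracted and dye-normalised (linear and lowess) by that software, and the authors' series table holds a log10 ratio of Cy5 over Cy3, which equalled the scanner's own log ratio. The methods' ratio, p and intensity limits are given beside limma's calls.

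The 1639 control spots of each array and, over all arrays, 2296 with an outlier flag were dropped, repeat spots were averaged, and log2(Cy5/Cy3) was fitted in R 4.3.3 with limma 3.58.1 (lmFit, eBayes with intensity trend), 1 coefficient per miRNA over all 15 arrays. Adjusted p-values are Benjamini-Hochberg over 31345 probes, called under 0.05. The mean of the 5 coefficients and a moderated F test of their differences came from the same fit. Channels were quantile-normalised within each dye and each miRNA was set against the mean of the other 4. No spot was saturated. With 3 arrays per miRNA, precision is limited by their number.

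Names were updated through RefSeq (GRCh38.p14): 175 probes matched by accession, 15 by symbol, 9 by older symbol and 15 not at all. Named are, per miRNA, up to 5 falls and 5 rises called with 1 sign on all 3 arrays, the same for the mean, the 10 smallest F-test p-values, and the listed long noncoding and structural RNAs by their brightest probe. Members, lists and tests were chosen with earlier results of these data known. The alternatives were normexp with offset 50 and loess, median centring, the series table, other dim filters, slide and replicate blocks, no trend, and each array left out. The fit was tested on simulated data with independent arrays, without a slide correlation or an outlying array, so that test does not cover these features. The sequence of the GAS5 probe is not reported here. Deviations of same-numbered arrays of different miRNAs correlated at a median of 0.06, against -0.05 for differently numbered arrays.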

Additional observations from a re-analysis of the deposited data

Results flagged for a closer look

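The ratios of 2 noncoding transcripts differed between the 5 miRNAs by the F test over all 15 arrays. For RPL23AP7 (first probe), low in miR-565, the limma adjusted p was 0.000478, and it stayed between 1.49e-05 and 0.0104 over the alternatives. For FTH1P12, low in miR-574-3p, it was 0.0379, and it ranged from 0.000488 to 0.289.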

How the results depend on the processing

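Counts of noncoding probes called moved with several settings; the cause was not tested, apart from miR-565 replicate 1, whose removal narrows the shared spread. The share of all probes called in the same fit stands beside each as a percent. With normexp and loess, the counts were 17 (9.21%) for miR-181d, against 9 as reported (6.27%), 24 (13.7%) for miR-629*, against 14 (10.5%), 7 (3.33%) for miR-766, against 2 (2.18%), and 1 (0.660%) for the F test, against 2 (0.517%). Without the dim filter, they were 36 (17.1%) for miR-181d, 5 (1.83%) for miR-766 and 1 (0.378%) for the F test. Without the intensity trend, they were 3 (4.77%) for miR-181d and 1 (0.354%) for the F test. With the slide as a random block, they were 1 (0.0957%) for miR-565, against 29 (13.3%), 2 (0.472%) for miR-574-3p, against 10 (5.32%), and 59 (30.1%) for the F test; for miR-629* the count was 0 (0.0319%; 19 at an unadjusted p under 0.05 in limma, 24 with normexp and loess), for miR-766 0 (0%; 1 and 7) and for the mean 0 (0.214%), against 69 (40.8%). The same block without miR-565 replicate 1, chosen after seeing the data, gave 78 (46.7%) for miR-181d, 60 (30.3%) for miR-565, 62 (31.3%) for miR-574-3p, 84 (56.8%) for miR-629*, 69 (38.5%) for miR-766, 117 (73.4%) for the mean and 48 (26.7%) for the F test. Over the 15 fits with 1 array left out, the counts ran from 0 to 48 for miR-181d (0.389% to 28.1%), 18 to 48 for miR-565 (8.99% to 26.5%), 2 to 46 for miR-574-3p (0.967% to 22.3%), 0 to 52 for miR-629* (1.08% to 35.2%), 0 to 30 for miR-766 (0.160% to 18.8%), 58 to 94 for the mean (34.1% to 57.2%) and 1 to 9 for the F test (0.220% to 3.56%); the highest came without miR-565 replicate 1, except that for miR-565 it came without its replicate 2, and the lowest for a single miRNA other than miR-565 came without one of that miRNA's own arrays.

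With the replicate block, the counts were 5 (5.15%) for miR-181d and 1 (0.440%) for the F test, and the others stayed within 1.5 times. Whether the numbers pair the arrays is not settled. Deviations of same-numbered arrays correlated at -0.40 to 0.51 (median 0.06, 13 of 30 pairs over 0.1). Those of differently numbered arrays correlated at -0.58 to 0.50 (median -0.05, 15 of 60 pairs over 0.1). Of 15 arrays, 6 correlated best with an array of their own number. Median centring and the series table moved no count by over 1.5 times, and no named value that was called changed sign under any alternative. Of 50 named values called, 43 stayed called without miR-565 replicate 1 and 6 with the slide block. For dim probes such as SUGT1P3, H19 and RFPL1S, signal over background limits what can be said.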
